A study of Mus musculus with 3 samples.

Results

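The clustered protocadherin genes lie side by side on mouse chromosome 18 in the order Pcdha, Pcdhb and Pcdhg. Protocadherins are adhesion proteins of the cell surface, best known from neurons, in which each cell expresses its own combination of them and uses it to tell its own branches from those of other cells. In Pcdha and Pcdhg each variable exon has its own promoter and is spliced to constant exons shared by the subcluster, whereas each Pcdhb gene is a single exon. The promoter used by a neuron is chosen largely at random, and the cluster is a much used model of chromatin looping because CTCF and cohesin bring chosen promoters to enhancers that lie far from them. Their expression is mostly found in the nervous system.

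Di-tags were taken as members if at least 1 of their ends fell in the 930 kb interval chr18:37080001-38010000 of mm9, the build named in the submitters' processing notes. A di-tag is a pair of sequence reads from the ends of 2 restriction fragments that had been ligated to each other in a fixed nucleus. This interval held 7251 of the 9376907 di-tags of Sample 3, 7181 of 8596799 in Sample 4 and 7410 of 8821161 in Sample 5, after removal of duplicates. These are 0.0773%, 0.0835% and 0.0840% of the libraries. All 3 libraries are Capture Hi-C of C57BL/6 mouse embryonic stem cells according to their cell type and strain labels. Cells were fixed with formaldehyde, DNA was cut with HindIII, ligated ends were marked with biotin, and the Hi-C library was enriched for chosen fragments by hybridisation, so that coverage along the genome follows the capture as well as the contacts. There is 1 group and no treated or control sample, and the sources used here do not say whether the libraries came from separate cultures.

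One label stands against the others. The source name of Sample 3 is foetal liver cells, while its cell type label and the study give embryonic stem cells. Sample 3 also had a smaller share of di-tags between chromosomes over the whole library, 52.0% against 67.4% in Sample 4 and 71.6% in Sample 5. Results are therefore given per library, and several means are followed by the mean of Samples 4 and 5. The libraries shared at most 1 identical di-tag of the cluster in any pair, and each list still held 1 exact copy among its members. With 3 libraries of 1 group no test between them was made, since a two-sided exact sign-flip test cannot go below 0.25. Intervals in brackets are exact 95% intervals that cover counting error only.

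The subclusters were set in bins of 10 kb. Pcdha was taken as chr18:37080001-37360000, Pcdhb as chr18:37420001-37690000 and Pcdhg as chr18:37810001-38010000. The RefSeq gene table places 14 Pcdha symbols from Pcdha1 to Pcdhac2, 22 Pcdhb symbols from Pcdhb1 to Pcdhb22 and 22 Pcdhg symbols from Pcdhga1 to Pcdhgc5 in this order, 21 of the latter protein coding. That table names Slc25a2, a mitochondrial carrier, and Taf7, a subunit of the general transcription factor TFIID, between Pcdhb and Pcdhg. Zmat2, Hars2, Hars and Dnd1 precede Pcdha, and Diaph1, Hdac3, Rell2 and Fchsd1 follow Pcdhg. It is of another build and served for names and order only, so single genes were not assigned to bins. The borders are approximate, from general knowledge of the mm9 map.

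Coverage of the cluster was uneven and was shared by the libraries. Of its 93 bins, 5 held 26.9% of the ends of the cluster in Sample 3, 23.1% in Sample 4 and 23.3% in Sample 5. The first of them, at the start of Pcdhb (chr18:37420001-37430000), held 540, 435 and 393 ends in the 3 libraries. A second Pcdhb bin, chr18:37460001-37470000, held 393, 393 and 394. The first bin of Pcdha (chr18:37080001-37090000) held 351, 371 and 412 ends. A bin in the later part of Pcdhb, chr18:37600001-37610000, held 365, 353 and 365, and one near the start of Pcdhg, chr18:37830001-37840000, held 413, 305 and 357. In these 5 bins Sample 3 held between 0.833 and 1.21 times the ends of the mean of Samples 4 and 5, scaled to library size. Over the whole cluster the libraries gave a Pearson's r across bins of 0.957 between Samples 3 and 4, 0.948 between Samples 3 and 5 and 0.982 between Samples 4 and 5, on log2(ends + 1) over 93 bins. The bins share capture and base composition, so this is a description.

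Pcdhb had the highest mean number of ends per bin. A few bins carried much of it, since its bins held from 3 to 540 ends in Sample 3. Its mean was 119, 127 and 129 ends per bin in Samples 3, 4 and 5 (125 ± 5.28, SD, n = 3). Pcdhg had 85.2, 79.7 and 78.4 (81.1 ± 3.61) and Pcdha 59.2, 70.0 and 75.2 (68.1 ± 8.16). The ranges of these means over the libraries did not overlap, which does not hold for the single bins. Both intervals between subclusters were also covered, with 43.8 ± 10.4 ends per bin between Pcdha and Pcdhb and 66.9 ± 5.46 between Pcdhb and Pcdhg. One bin of the latter interval had no end in any library. Reads had to align at 1 place only, and many protocadherin exons resemble each other, but how much this lowered the coverage was not tested. Compared with windows of the same length elsewhere on chromosome 18, the 7656, 8039 and 8244 ends of the cluster were reached or passed by 24.3% of windows in Sample 3, 9.29% in Sample 4 and 7.87% in Sample 5.

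**Figure D1:**
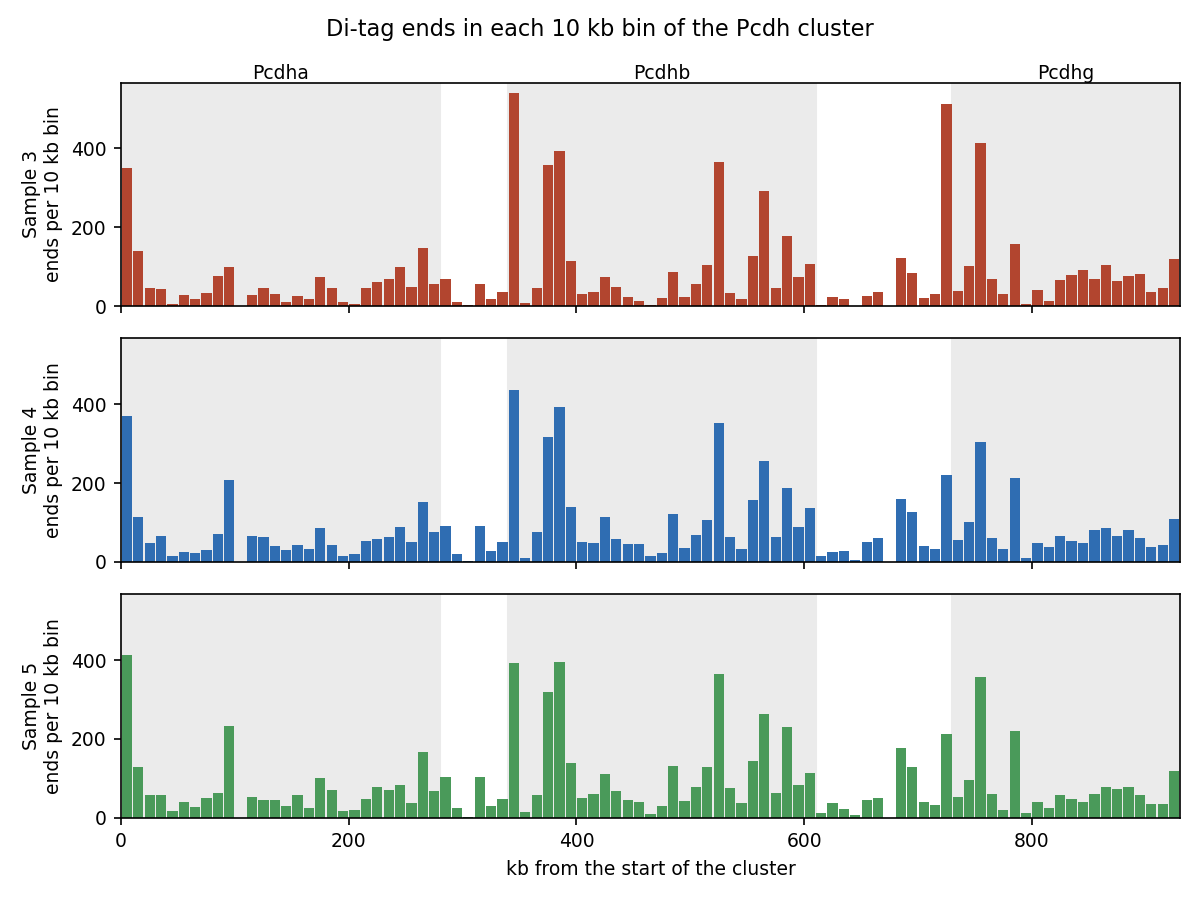
Number of di-tag ends in each 10 kb bin of the protocadherin cluster (vertical axis) against the distance in kb from its start (horizontal axis), 1 panel per library, with the subclusters shaded. The same bins are high in all 3 panels, among them the first bin of Pcdhb with 540, 435 and 393 ends. The last bin before Pcdhg is high in Sample 3, with 513 ends against 221 and 212.

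Some bins departed from this shared profile, and a pair of well covered ones is given. The last bin before Pcdhg, chr18:37800001-37810000, held 513, 221 and 212 ends in Samples 3, 4 and 5. In Pcdha, the bin chr18:37170001-37180000 held 99, 209 and 232. Sample 3 is thus 2.20 times the mean of Samples 4 and 5 at the first, scaled to library size, and 0.417 times at the second. Both bins were picked after their values had been seen, and others differed too, such as chr18:37530001-37540000 in Pcdhb with 12, 46 and 41 ends and chr18:37920001-37930000 in Pcdhg with 92, 47 and 40.

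Most members joined the cluster to another chromosome. This trans share was 56.8% of members in Sample 3 (55.6 to 57.9), 75.1% in Sample 4 (74.1 to 76.1) and 78.2% in Sample 5 (77.3 to 79.2), which gives 70.0 ± 11.6% (SD, n = 3), and 76.7% without Sample 3. It follows the libraries, and 96.0%, 87.2% and 91.7% of windows of chromosome 18 had a trans share at least as high as the cluster. Both ends lay in the cluster for 405 members of Sample 3 (5.59%, 5.07 to 6.14), 858 of Sample 4 (11.9%, 11.2 to 12.7) and 834 of Sample 5 (11.3%, 10.5 to 12.0). The mean was 9.60 ± 3.49%, and 11.6% without Sample 3. Of these, 17.8%, 16.8% and 21.1% had both ends in 1 bin.

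Sample 3 also differed in where its remaining cis di-tags went. Within chromosome 18 but more than 2 Mb outside the cluster lay the other end of 2178 members of Sample 3 (30.0%), 607 of Sample 4 (8.45%) and 511 of Sample 5 (6.90%). Of the cis di-tags of the cluster, 12.9% had both ends in it in Sample 3, against 48.0% in Sample 4 and 51.7% in Sample 5. The 2 Mb of flank on the centromeric side received 236, 134 and 118 members and that on the telomeric side 317, 189 and 150. Much of this contrast held for the whole chromosome. The share of members with both ends inside was 0.481 times the mean of Samples 4 and 5 in Sample 3, against 0.640 in the median window of equal length, and 7.17% of windows were as low.

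Because near bins meet more often than distant ones and deeply covered bins more often than sparse ones, counts were set against an expected count. For 2 bins of 1 chromosome it is the product of their ends times the rate of all cis pairs of the library at that distance. Observed over expected is 1 where a region behaves as the cis average of its own library, so a library with more long-range contacts has its own decay. Pairs less than 2 bins apart were left out. On this scale the whole cluster gave 0.969 in Sample 3 (0.858 to 1.09), 1.41 in Sample 4 (1.30 to 1.53) and 1.55 in Sample 5 (1.42 to 1.69). The mean was 1.31 ± 0.305 (SD, n = 3), and 1.48 without Sample 3. Contacts inside the cluster were above the cis average of the library in Samples 4 and 5, and the interval of Sample 3 includes 1. With the decay of chromosome 18 alone the ratios were lower, at 0.843, 1.20 and 1.32 in Samples 3, 4 and 5.

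**Figure D2:**
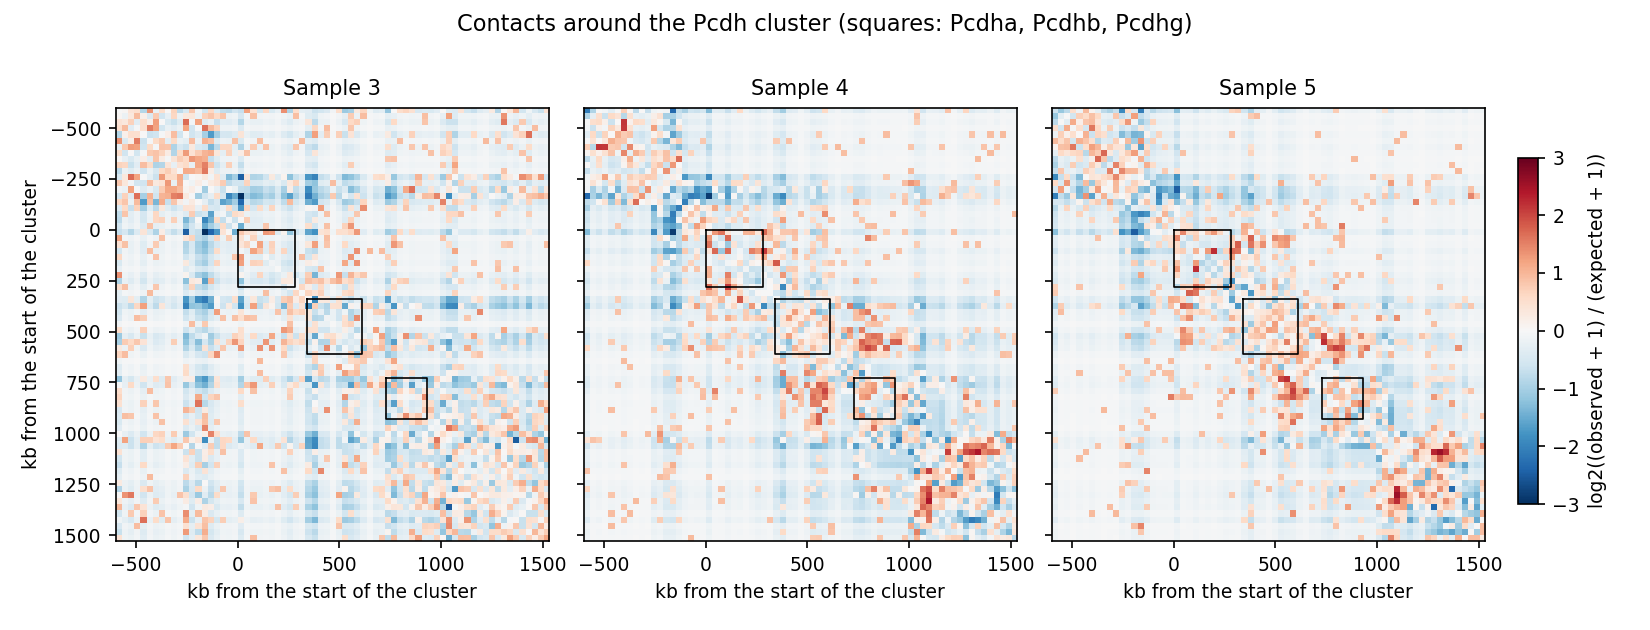
Contacts in and around the protocadherin cluster in blocks of 30 kb, 1 panel per library, with both axes in kb from the start of the cluster. Colour is log2 of observed plus 1 over expected plus 1, and the black squares outline Pcdha, Pcdhb and Pcdhg. A patch above expectation joins Pcdhb to Pcdhg in Samples 4 and 5, where the ratio over both subclusters was 2.89 and 2.84, and is missing in Sample 3, where it was 0.80, and pale blue bands mark low contact with the centromeric side.

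Among pairs of subclusters, the highest ratio of Samples 4 and 5 was that of Pcdhb with Pcdhg. These subclusters shared 107 di-tags in Sample 4 where 37.0 were expected, a ratio of 2.89 (2.37 to 3.49), and 86 in Sample 5 where 30.3 were expected, a ratio of 2.84 (2.27 to 3.50). In Sample 3 there were 28 for 35.1 expected, a ratio of 0.80 (0.531 to 1.15). Samples 4 and 5 are close to each other and their intervals lie wholly above that of Sample 3, whose ratio was 0.279 times their mean. Over the 3 libraries the mean was 2.17 ± 1.19, so the spread is set by Sample 3, and without it the mean was 2.86.

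The excess was strongest for the end of Pcdhb that faces Pcdhg. Pcdhb was divided into 3 equal parts and Pcdhg into 2. The last part of Pcdhb, chr18:37600001-37690000, met the first part of Pcdhg, chr18:37810001-37910000, in 49 di-tags of Sample 4 for 13.1 expected (3.74, 2.77 to 4.95) and in 51 of Sample 5 for 11.1 expected (4.57, 3.41 to 6.01). Sample 3 had 11 for 10.9 expected, a ratio of 1.01 (0.504 to 1.81). The 49 di-tags fell on 37 different pairs of bins and the 51 on 32, with at most 4 on any pair. The excess is therefore spread over the block and does not rest on 1 pair of bins. With the second part of Pcdhg the same part of Pcdhb gave 3.74, 3.16 and, in Sample 3, 1.11. The first part of Pcdhb, chr18:37420001-37510000, gave 1.62 and 1.57 with the first part of Pcdhg in Samples 4 and 5, and 0.484 in Sample 3, from 13, 10 and 4 di-tags. The middle part of Pcdhb gave 0.382, 2.69 and 1.18 in Samples 3, 4 and 5 with the first part of Pcdhg, and 1.86, 1.62 and 1.93 with the second, where Sample 3 was as high as the others, from 1, 10 and 4 di-tags and from 3 in each library.

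Pcdha, the subcluster at the centromeric end, was above expectation with itself and with Pcdhb in every library. Within Pcdha the ratio was 1.34, 1.60 and 1.60 in Samples 3, 4 and 5 (1.52 ± 0.150), and the interval of Sample 3 (0.869 to 1.98) includes 1. With the coverage of the bins left out of the expected count this mean fell below 1, to 0.837. Between Pcdha and Pcdhb the libraries gave 62 di-tags for 38.9 expected, 68 for 50.8 and 65 for 43.8. These are ratios of 1.60, 1.34 and 1.48 (1.47 ± 0.128), and none of the 3 intervals includes 1. With the decay of chromosome 18 alone they were 1.42, 1.12 and 1.27. The intervals of Sample 4 (1.04 to 1.70) and Sample 5 (1.15 to 1.89) hold the 1.18 and 1.17 that the median window of chromosome 18 gave within itself in these libraries. Sample 3 was here as high as the others. Between Pcdha and Pcdhg, the pair farthest apart, 11, 8 and 9 di-tags gave 1.17, 0.954 and 1.25 (1.13 ± 0.155), which cannot be told from 1 at this depth.

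Within Pcdha, the first of 4 equal parts (chr18:37080001-37150000) met itself at 2.27, 2.27 and 2.54 in Samples 3, 4 and 5, and the next part (chr18:37150001-37220000) at 3.67, 2.21 and 1.21. The former rest on 5, 11 and 13 di-tags, and 8 of those of Sample 4 lay on 1 pair of bins, as did 8 of those of Sample 5, while the latter rest on 3, 8 and 4, with 6 of the 8 and 3 of the 4 on 1 pair. The remaining parts were lower with themselves in Samples 4 and 5, at 0, 0.848 and 0 for the part chr18:37220001-37290000 and 1.47, 0.208 and 0.713 for the part chr18:37290001-37360000, from at most 4 di-tags each. With the first part of Pcdhb, the first part of Pcdha gave 2.22 in Sample 4 and 2.72 in Sample 5, from 14 and 15 di-tags, and 0.328 in Sample 3 from 2. Other blocks went the other way. The last part of Pcdha gave 1.75, 1.31 and 0.820 with the first part of Pcdhb in Samples 3, 4 and 5, from 20, 18 and 9 di-tags. The first part of Pcdha gave 2.20, 1.25 and 1.66 with the last part of Pcdhb, from 7, 4 and 5.

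Of the remaining subclusters, Pcdhg had a higher ratio with itself than Pcdhb in all 3 libraries. Within Pcdhg the ratio was 1.61 (1.20 to 2.11) in Sample 4 and 1.83 (1.34 to 2.43) in Sample 5, against 0.991 (0.635 to 1.48) in Sample 3. Within Pcdhb it was 1.13 (0.949 to 1.33) and 1.29 (1.09 to 1.52), against 0.731 (0.552 to 0.949). Sample 3 was lower in both, though its intervals overlap those of Sample 4 in both and that of Sample 5 for Pcdhg. Thus Pcdhb, with the highest mean of ends per bin, was nearer its expectation with itself than with the neighbouring Pcdhg in Samples 4 and 5. With the coverage of the bins left out of the expected count, Pcdhg fell below Pcdhb in each library. The ratios were then 0.677, 1.34 and 1.42 within Pcdhg and 0.956, 2.31 and 2.70 within Pcdhb in Samples 3, 4 and 5.

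**Figure D3:**
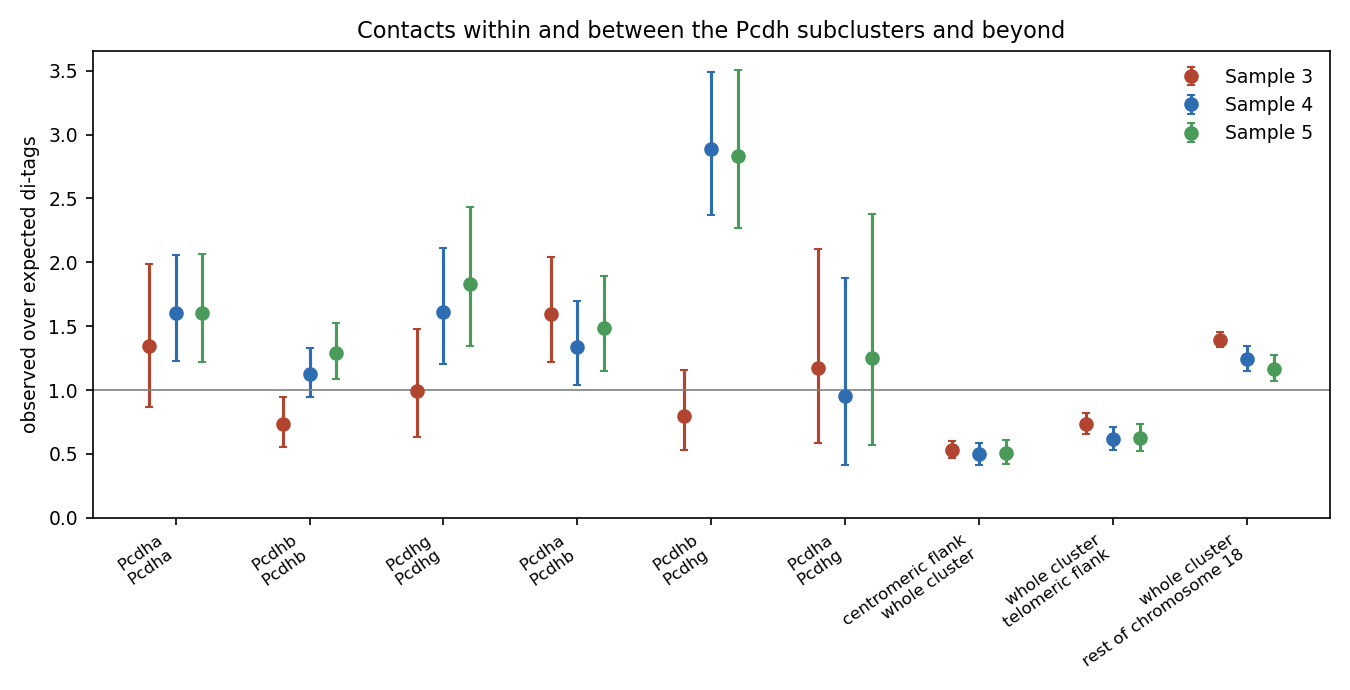
Observed over expected di-tags (vertical axis, from 0) for each pair of subclusters and for the whole cluster with its flanks and with the rest of chromosome 18, 1 point per library with its exact 95% Poisson interval. The line at 1 is the cis average of the library. Pcdhb with Pcdhg lies at 2.89 and 2.84 in Samples 4 and 5 and at 0.80 in Sample 3, and all 3 libraries lie below 1 with both flanks.

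By distance, the excess in Samples 4 and 5 was largest between 200 and 400 kb. There the cluster had 152 di-tags for 79.8 expected in Sample 4 (1.90, 1.61 to 2.23) and 133 for 67.9 in Sample 5 (1.96, 1.64 to 2.32), whereas Sample 3 had 57 for 67.0 (0.851, 0.644 to 1.10). From 50 to 100 kb the libraries were alike, at 1.20, 1.27 and 1.37. From 400 to 930 kb they gave 1.08, 1.17 and 1.48, from 37 to 43 di-tags each. From 20 to 50 kb the ratios were 0.771, 1.16 and 1.32, and from 100 to 200 kb they were 1.09, 1.51 and 1.70.

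The cluster had few contacts with its surroundings in every library. With the 2 Mb on the centromeric side the ratio was 0.530, 0.495 and 0.510 in Samples 3, 4 and 5 (0.512 ± 0.0176, SD, n = 3), from 235, 134 and 116 di-tags. With the 2 Mb on the telomeric side it was 0.733, 0.617 and 0.624 (0.658 ± 0.0654). The centromeric ratio was the lower one in each library, and leaving out any library kept it between 0.502 and 0.520. On the telomeric side Sample 3 was the highest. Contacts with chromosome 18 beyond both flanks were at 1.39, 1.24 and 1.17 (1.27 ± 0.114), and the median window of equal length gave 1.18, 1.14 and 1.08, with 9.88%, 21.1% and 22.7% of windows at least as high.

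Subclusters took unequal parts in this. Pcdha was low with the centromeric flank beside it, at 0.514, 0.417 and 0.374 (0.435 ± 0.0717), and Pcdhb gave 0.438, 0.501 and 0.450 (0.463 ± 0.0332). Pcdhg, the farthest from that flank, gave 0.725, 0.851 and 0.835 (0.804 ± 0.0686). With the telomeric flank, which Pcdhg adjoins, Pcdhg gave 0.927, 0.790 and 0.719 (0.812 ± 0.106), Pcdhb 0.553, 0.615 and 0.705, and Pcdha 0.708, 0.312 and 0.400. Pcdhg was the subcluster nearest to 1 with either flank in all 3 libraries.

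Against windows of its own length on chromosome 18, the cluster was near the bottom for contacts with flanks. With both flanks joined the ratio was 0.630 in Sample 3, 0.558 in Sample 4 and 0.567 in Sample 5, while the median window gave 1.17, 1.31 and 1.23. Only 0.106%, 0.485% and 0.306% of 8494, 8446 and 8508 overlapping windows were as low or lower. Contacts within the cluster ranked differently among the libraries. In Sample 5, 0.976% of windows were as high or higher within, in Sample 4 8.74%, and in Sample 3 87.2%. On the lists with duplicates retained, where each copy counts as a contact, these became 37.5%, 41.5% and 80.8%. The high rank of Samples 4 and 5 was lost there. The median window was at 1.17, 1.18 and 1.17 in Samples 3, 4 and 5. Each library is set against its own coverage and decay, so like medians cannot show that the windows did not shift. For the unscaled share of members with both ends inside, Sample 3 was 0.640 times the mean of Samples 4 and 5 in the median window. For observed over expected within, the ratio of Sample 3 to the mean of Samples 4 and 5 was 0.654 in the cluster. It was 0.994 in the median window, and 0.852% of 8446 windows were as low. Sample 4 over Sample 5 was 0.907. Overlapping windows share most of their bins, so these ranks describe chromosome 18 and carry no p-value.

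**Figure D4:**
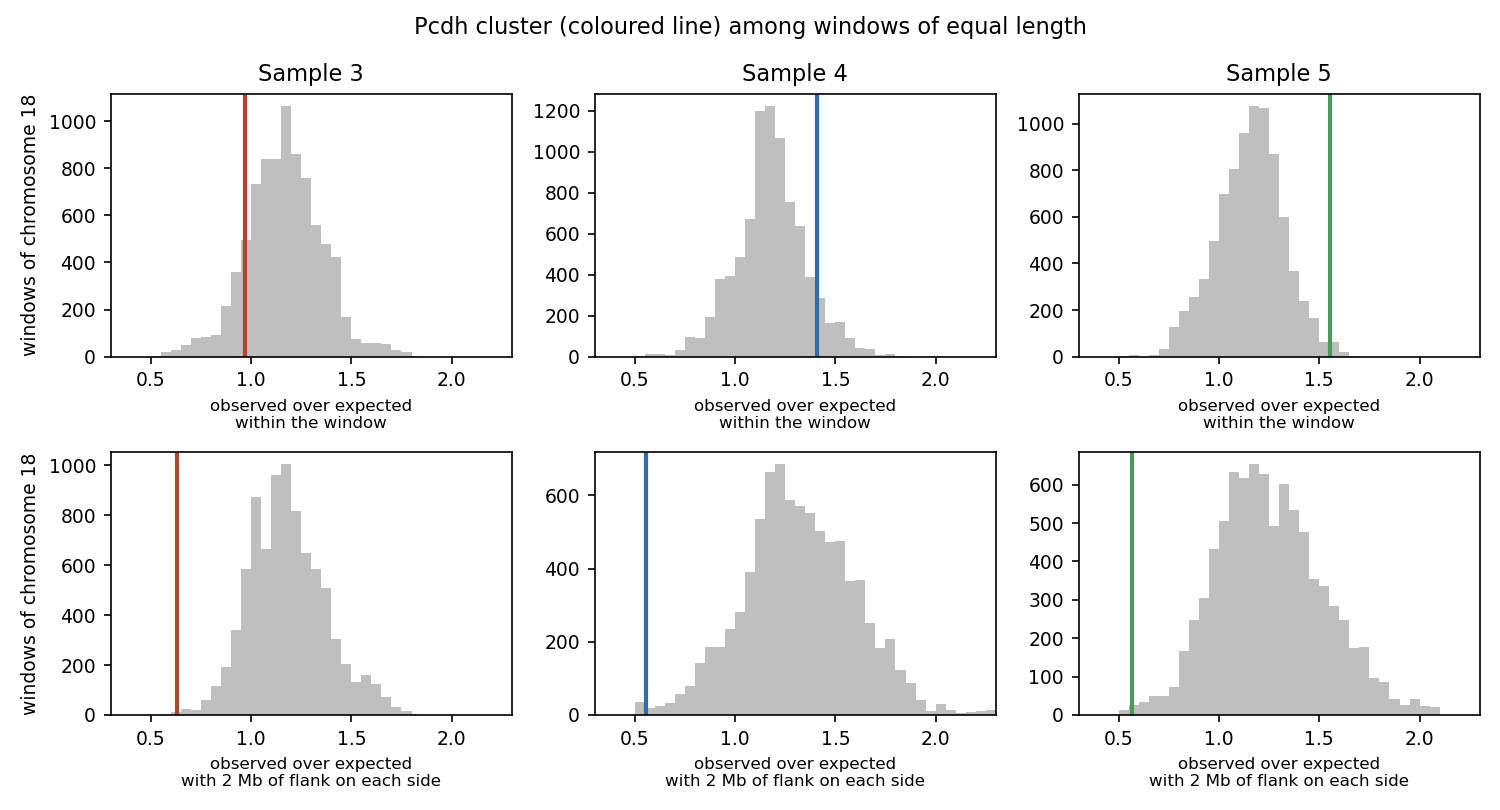
Distribution of observed over expected di-tags over windows of chromosome 18 as long as the protocadherin cluster that were covered in every library, with the number of windows on the vertical axis and 1 column of panels per library. The coloured line is the cluster. Within the window (upper row) it lies at 0.969 in Sample 3 and at 1.41 and 1.55 in Samples 4 and 5, and with 2 Mb of flank on each side (lower row) at 0.630, 0.558 and 0.567, in the low tail of each library.

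The limits of the cluster and of its parts were read from contacts across each border between neighbouring bins, in a square of 200 kb on each side. At the start of the cluster 12 di-tags of Sample 3 crossed for 42.5 expected (0.282, 0.146 to 0.493), 28 of Sample 4 for 51.6 (0.542, 0.360 to 0.784) and 24 of Sample 5 for 46.2 (0.520, 0.333 to 0.774). Of the borders of chromosome 18, 0.188%, 2.77% and 1.86% were as low or lower. The lowest values within 600 kb of the cluster lay outside it. They were 0.232 at base 37010001 in Sample 3, 0.226 at 36960001 in Sample 4 and 0.267 at 36990001 in Sample 5, all before Pcdha. With squares of 100 kb the start of the cluster gave 0.695, 1.11 and 0.903 in Samples 3, 4 and 5, a mean of 0.902 in place of 0.448.

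No such drop separated Pcdhb from Pcdhg. Across the end of Pcdhb 85 di-tags passed in Sample 4 for 38.3 expected (2.22, 1.77 to 2.75) and 85 in Sample 5 for 33.3 (2.55, 2.04 to 3.16), and 98.6% and 99.2% of borders were as low or lower. Sample 3 had 29 for 30.4 (0.954, 0.639 to 1.37). In the interval beyond, at base 37740001, Sample 5 reached 3.02, which no border scored on chromosome 18 exceeded, Sample 4 gave 2.43 and Sample 3 gave 1.01. With squares of 100 kb the end of Pcdhb gave 2.02 in Sample 3 and 1.51 and 1.57 in Samples 4 and 5. These squares end inside the interval and hold no bin of Pcdhg. They set Pcdhb against the interval only and do not bear on Pcdhb with Pcdhg. The squares of 200 kb also hold the whole interval of 120 kb, and only their remainder lies in Pcdhg. Their values there are thus a mix of both. Inside Pcdha, at base 37250001, Samples 4 and 5 gave 2.60 (1.98 to 3.36) and 2.09 (1.51 to 2.81), and Sample 3 0.710 (0.340 to 1.31). Its squares reach past Pcdha, into the centromeric flank on 1 side and the interval and start of Pcdhb on the other. Pcdha gave 1.34, 1.60 and 1.60 with itself in Samples 3, 4 and 5, and 0.241, 2.95 and 2.06 with that interval. At the start of Pcdhb Samples 4 and 5 were near 1, with 1.02 and 1.10, and Sample 3 gave 1.54, while the end of the cluster gave 0.795, 0.900 and 0.805. Samples 4 and 5 thus rise around a base inside Pcdha and over the passage from Pcdhb to Pcdhg. They lie near 1 where Pcdhb begins. The bases 37250001 and 37740001 are not borders of subclusters. They were picked from the scan after their values had been seen, and squares of 100 kb were not tried there. A like contrast stood outside the cluster in the telomeric flank, where base 38310001 gave 1.10 in Sample 3, 2.22 in Sample 4 and 2.04 in Sample 5. Sample 3 differs from the others at once in its source label and in its library-wide trans share, and the part of either in this contrast was not tested.

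**Figure D5:**
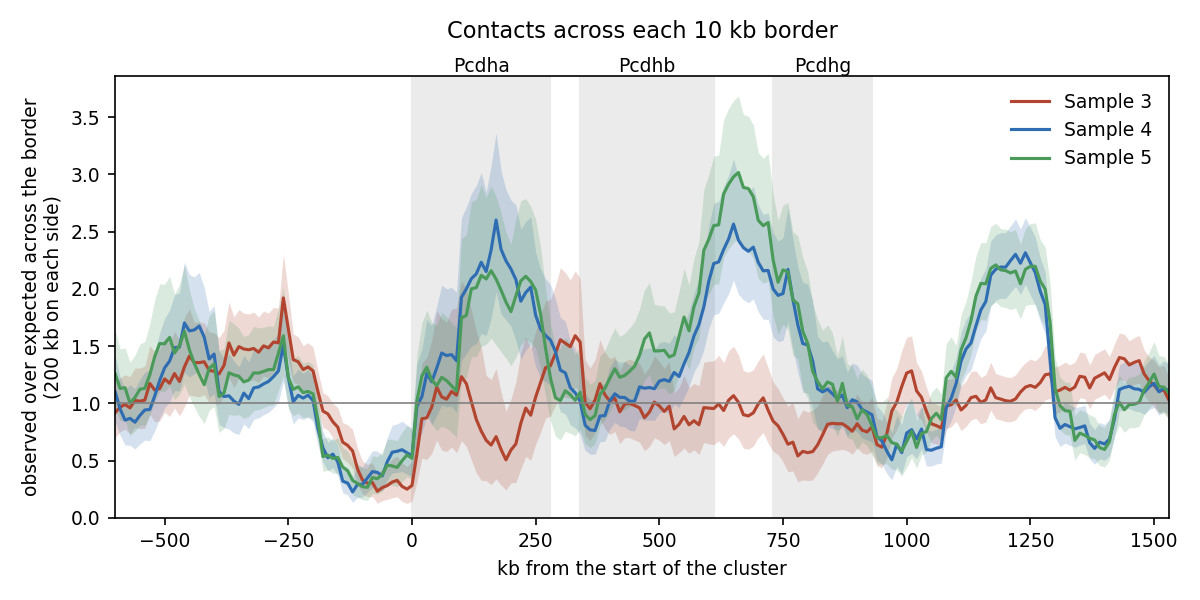
Observed over expected di-tags across each 10 kb border (vertical axis, squares of 200 kb on each side) against kb from the start of the cluster, with exact 95% intervals as bands and the subclusters shaded. All libraries fall to between 0.226 and 0.267 at their lowest border before Pcdha. Samples 4 and 5 rise to 2.60 and 2.09 at a border inside Pcdha, whose squares reach beyond it. Between Pcdhb and Pcdhg they rise to 2.43 and 3.02. Sample 3 stays at 0.710 and 1.01 at these borders.

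No single pair of bins within the cluster was called. A cumulative binomial test against coverage and distance, with Benjamini-Hochberg adjustment across every possible pair in the genome, called 0 of the 42, 112 and 105 pairs of cluster bins with at least 2 di-tags in Samples 3, 4 and 5, and the smallest adjusted p was 1. Over the genome 0.846%, 0.853% and 0.952% of pairs with at least 2 di-tags were called. Those called had a median of 3 di-tags, for a median of 0.000701, 0.000767 and 0.000826 expected. The most repeated pair of the cluster at least 50 kb apart had 1.53, 1.52 and 1.29 expected. At this depth the test could hardly call near pairs such as those of the cluster, so the lack of calls says little about its contacts. At an unadjusted p under 0.05 the test named 14, 56 and 46 pairs of the cluster, 33.3%, 50.0% and 43.8% of those tested, against 49.7%, 43.0% and 44.9% over the genome. With coverage alone, 17, 75 and 68 pairs were called. These are 40.5%, 67.0% and 64.8%, against 39.0%, 61.4% and 59.9% over the genome. All genome shares given here also hold trans and far cis pairs, a background of another kind. They therefore cannot say whether the cluster stands apart.

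Few pairs of bins were seen in every library. Of 687 pairs at least 50 kb apart seen in any library, 20 were seen in all 3, and 0 had at least 2 di-tags in each. Such counts were not made for other windows, and how far low depth sets the overlap was not tested. They therefore cannot say whether contacts differ between libraries. The most repeated was a pair within Pcdhb, chr18:37450001-37460000 with chr18:37600001-37610000, with 1, 2 and 4 di-tags for 1.53, 1.52 and 1.29 expected. Next came Pcdhb and Pcdhg pairs, chr18:37640001-37650000 with chr18:37820001-37830000 (1, 1 and 4) and chr18:37660001-37670000 with chr18:37830001-37840000 (2, 1 and 3), where under 1 was expected in each library. Between the cluster and its flanks 1003 pairs were seen and 1 was seen in all 3, a Pcdhg bin, chr18:37970001-37980000, with chr18:38110001-38120000 (1, 2 and 1).

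Trans contacts of the cluster were spread over the genome. The expected number here is the share of all trans ends that the partner holds. Chromosomes other than Y gave mean ratios between 0.913 (chromosome 11) and 1.07 (chromosome 13), with SDs of up to 0.125. Of 2497 partner windows of 1 Mb, the median had 1, 2 and 2 di-tags in Samples 3, 4 and 5. A single window reached 10 di-tags in every library, chr11:3000001-4000000, with 15, 24 and 10 for 13.0, 16.0 and 16.3 expected. It was above expectation in Samples 3 and 4 and below it in Sample 5. The test against coverage and distance called 2, 2 and 4 of the 82, 46 and 37 pairs with 1 end in the cluster and at least 2 di-tags, against 0.846%, 0.853% and 0.952% of all pairs of the genome with that many, a background that also holds near cis pairs and is thus of another kind. These are 2.44%, 4.35% and 10.8%, from pairs of 2 or 3 di-tags each, all of them trans but 1 cis pair of Sample 3.

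Far contacts along chromosome 18 were spread over many windows. Of 82 windows of 1 Mb outside the cluster and its flanks, 33 were above expectation in all 3 libraries and 3 were below it in all. Ratios above 1 are usual on this scale, where the median window of equal length was at 1.18, 1.14 and 1.08 in Samples 3, 4 and 5. No such count was made for other windows. The ratios of the windows, as log2(ratio + 0.1), were hardly correlated between libraries. Pearson's r across windows was -0.0299 for Samples 3 and 4, 0.0621 for Samples 3 and 5 and 0.213 for Samples 4 and 5. Many windows had few expected di-tags, and how far counting error lowers r was not tested. The window with the highest minimum was chr18:83000001-84000000, with 13, 10 and 7 di-tags for 5.68, 3.27 and 3.11 expected, ratios of 2.29, 3.06 and 2.25. Next were chr18:81000001-82000000, at 1.99, 2.02 and 2.58, and chr18:72000001-73000000, at 2.67, 1.99 and 2.42. All 3 lie on the telomeric side of the chromosome, more than 30 Mb from the cluster, and rest on between 5 and 15 di-tags a library. Of the 3 windows below expectation in all libraries, chr18:34000001-35000000 was the lowest. It lies near the outer end of the centromeric flank. It had 37, 15 and 9 di-tags for 89.0, 25.8 and 22.8 expected, ratios of 0.416, 0.581 and 0.395. Low contact on that side thus reached past the 2 Mb of flank.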

How the data were processed

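The authors deposited 2 lists of di-tags for each library, with duplicates retained and with duplicates removed. Before that they truncated reads at the ligation junction, mapped both reads of a pair separately, kept pairs that aligned uniquely and removed artefacts with HiCUP. The submitters' processing notes name Bowtie 1.1.0 and mm9. Each deposited line is 1 di-tag with the mapped place and orientation of its reads, and what was measured is a count of such lines.

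Lists without duplicates were binned at 10 kb with Python 3.11.15, NumPy 2.4.6 and SciPy 1.17.1. The cluster and its 3 subclusters were rounded outward from approximate mm9 positions of the genes, taken from general knowledge, since no mm9 annotation was used here. Expected counts used the ends of both bins and the decay with distance over all chromosomes. Pairs were tested with a cumulative binomial test in each library, called at an adjusted p under 0.05 with at least 2 di-tags. Windows needed ends in 80% of their bins. Named were the 5 bins with the highest mean share of ends, the pairs and the far or trans windows with the highest smallest value over libraries. Subcluster ratios and pair calls were tried on simulated cis di-tags of chromosome 18, drawn from the expected counts of Sample 3 with contacts added. Borders, window ranks and trans partners were not tried in this way, and the outcome is not given here. Depth per library was between 8596799 and 9376907 di-tags. Without molecular identifiers, intervals cover counting error only, and the spread between libraries may be technical. The members, lists and tests were chosen with earlier results of these data known, and the equal parts of the subclusters and the far windows were added after the data were seen.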

Additional observations from a re-analysis of the deposited data

How the results depend on the processing

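Of 100 values recomputed under other settings, 82 moved by less than 1 SD between libraries, by less than 1.5 times where they were counts, or within the counting interval for the ratio of Sample 3 to the others. This SD is wide where Sample 3 differs, so the count of 82 says little about stability there. Pcdhb with Pcdhg, with an SD of 1.19, went from 2.17 to 3.37 with distance alone and still fell within it. Leaving out 1 library gave 1.82 to 2.86 for Pcdhb with Pcdhg, 1.19 to 1.48 within the whole cluster, 1.59 to 2.39 across the end of Pcdhb and 8.42% to 11.6% for members with both ends in the cluster. The mean percent of windows at least as high within, 32.3, fell to 4.86 without Sample 3 and ranged up to 48.0, and it was 53.3 with duplicates retained. Sample 3 over the mean of Samples 4 and 5 for Pcdhb with Pcdhg, 0.279, stayed between 0.206 and 0.352. Moving the inner borders by 1 bin, chosen after seeing the data, gave 0.237 and 0.285. Expected counts from coverage alone called 160 pairs in the cluster over the libraries in place of 0, and lists with duplicates retained called 387. Values from the latter lists count each copy of a di-tag, and the copies are not independent contacts. With distance alone the ratios were 0.837 within Pcdha, 1.85 for Pcdha with Pcdhb, 0.929 for Pcdha with Pcdhg and 1.99 within Pcdhb. With the decay of chromosome 18 they were 1.29 within Pcdha and 1.27 for Pcdha with Pcdhb. With duplicates retained they were 2.12, 1.28 and 0.772 for Pcdha with Pcdha, Pcdhb and Pcdhg, 0.438 with the centromeric flank, and 0.629% of windows were as low with flanks. With windows side by side 0% were as low. Squares of 100 kb gave 0.902 at the start of the cluster. Di-tags at least 20 kb apart had both ends in the cluster in 6.02%. Windows with at least 10 trans di-tags in every library numbered 0 at 500 kb and 406 with duplicates retained, in place of 1. The causes of these shifts were not tested. Depth limits all values on single pairs of bins and on Pcdha with Pcdhg.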

Other observations

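With duplicates retained, the lists held 66338, 54888 and 51477 members of the cluster in Samples 3, 4 and 5. They held 9.15, 7.64 and 6.95 copies per distinct member, and the test counts each copy as a contact of its own. From barcodes in other libraries, the paper holds duplicates to be almost certainly PCR copies. Calls on these lists thus do not rest on independent contacts. In those lists 51.5%, 43.7% and 43.7% of the pairs of cluster bins with at least 2 di-tags were called against coverage and distance. Over the genome 81.0%, 84.7% and 86.0% were called, a background of another kind that also holds trans and far cis pairs.

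Contacts that pass over the cluster, from 1 flank to the other, were 620 for 661.7 expected in Sample 3 (0.937, 0.865 to 1.01), 112 for 184.3 in Sample 4 (0.608, 0.500 to 0.731) and 104 for 148.4 in Sample 5 (0.701, 0.572 to 0.849). Within the flanks themselves the ratios were 0.981, 0.971 and 1.03 on the centromeric side and 1.10, 1.15 and 1.19 on the telomeric side, close to each other in the 3 libraries.

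The short interval between Pcdha and Pcdhb met Pcdha in 1 di-tag of Sample 3 for 4.14 expected, in 26 of Sample 4 for 8.82 (2.95, 1.92 to 4.32) and in 18 of Sample 5 for 8.74 (2.06, 1.22 to 3.25). The interval between Pcdhb and Pcdhg met Pcdha in 2, 4 and 2 di-tags for 5.69, 5.33 and 4.62 expected. Both were picked after their values had been seen.

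The Y chromosome met the cluster in 2, 5 and 7 di-tags of Samples 3, 4 and 5, for 1.17, 3.24 and 3.54 expected. The mean ratio was 1.74 ± 0.220 (SD, n = 3) from few di-tags. The intervals of Sample 3 (0.206 to 6.16), Sample 4 (0.501 to 3.60) and Sample 5 (0.796 to 4.08) all include 1.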
